A study of Mus musculus with 2 samples.

Results

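The zona pellucida genes Zp1, Zp2 and Zp3 were followed in single-cell RNA sequencing of whole ovaries from CD1 mice at postnatal day 2. They are 3 of the 31057 genes in the count matrices and were chosen by name, because each encodes a structural glycoprotein of the coat around the mouse egg. The experiment consists of 2 libraries from untreated females, each pooling 6 ovaries of 3 pups of a single mother. Comparisons were therefore made over the 2 libraries (n = 2), and single cells were not counted as replicates. The matrices hold unique molecular identifier (UMI) counts, in which each captured transcript is tagged at its 3′ end and counted once whatever its length.

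The zona pellucida is an extracellular matrix that growing oocytes secrete and assemble around themselves. Its proteins pass through the endoplasmic reticulum and Golgi as membrane-anchored precursors, are N-glycosylated, and are released by cleavage ahead of the membrane anchor before they join filaments through their shared zona domain. ZP2 and ZP3 form the repeating filament and ZP1 cross-links filaments. ZP2 carries the region that sperm bind and is cleaved after fertilization. Around birth the oocytes of the mouse reach their arrest late in meiotic prophase. Over the first days of life the cysts in which they lie break up and primordial follicles form, in which a single layer of flat granulosa cells surrounds an oocyte that has not begun to grow. Transcription of the 3 genes depends on FIGLA, a basic helix-loop-helix factor that pairs with an E-protein such as TCF3 and binds E-boxes, whose letters are CANNTG.

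The genes lie apart in the genome. By the GENCODE annotation of GRCm38, Zp1 (ENSMUSG00000024734) has 12 exons at chr19:10914287-10920632 on the minus strand. Zp2 (ENSMUSG00000030911) has 18 exons at chr7:120126772-120145291 on the minus strand, and Zp3 (ENSMUSG00000004948) has 8 exons at chr5:135980099-135988624 on the plus strand. No annotated gene overlaps any of them, and no other gene's transcript matched them over 100 or more bases at 90% identity, so their reads were not shared with a near-identical copy. In the principal transcript of each gene, to which the exon numbers also belong, the 3′ untranslated region is short, with 34 bases in Zp1, 49 in Zp2 and 13 in Zp3. A read from the 3′ end of these transcripts would fall mostly in the coding sequence. The annotated Zp2 gene extends well past the stop codon of that transcript, at chr7:120132389-120132391, and the positions of reads were not examined. The last 90 coding bases are printed here because they lie near the 3′ end of these transcripts. They encode at least part of the membrane anchor and the short tail behind it, and the limits of the anchor were not located. The bases run 5′ to 3′ in the sense of the transcript, with the stop codon in capitals.
Zp1: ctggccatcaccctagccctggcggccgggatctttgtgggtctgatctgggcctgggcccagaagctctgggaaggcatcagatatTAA
Zp2: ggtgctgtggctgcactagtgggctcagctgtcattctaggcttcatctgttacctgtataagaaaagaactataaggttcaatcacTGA
Zp3: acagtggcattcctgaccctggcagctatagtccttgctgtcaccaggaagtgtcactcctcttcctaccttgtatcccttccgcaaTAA

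Of the 3 genes, a promoter sequence was at hand for Zp3 only, and those of Zp1 and Zp2 were not searched. The promoter of Zp3 is shown because FIGLA is known to act there through an E-box. The sequence is RefSeq's for GRCm38.p6, the 250 bases before its transcription start at chr5:135979855-135980104 on the plus strand, with each E-box (CANNTG) in capitals.
Zp3 promoter: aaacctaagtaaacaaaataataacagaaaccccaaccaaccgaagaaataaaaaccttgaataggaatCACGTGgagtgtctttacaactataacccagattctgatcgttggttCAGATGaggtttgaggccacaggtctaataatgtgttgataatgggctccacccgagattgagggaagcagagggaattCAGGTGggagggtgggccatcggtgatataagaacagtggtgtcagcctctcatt
The first base of CACGTG lies 181 bases before the start, that of CAGATG 134 and that of CAGGTG 55. The search covered both strands, on which CANNTG reads the same. Of 32851 RefSeq promoter windows of this length, 66.2% hold at least 1 CANNTG, 6.02% hold CACGTG and 17.2% hold CAGGTG on either strand. TATAA, searched on both strands, starts 29 bases before the start on the plus strand and also occurs 160 bases before it. It is held by 22.8% of the windows. A match describes the letters in the window and is not a measured binding site.

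The deposited matrices held 4094 barcodes and 54471790 UMIs in replicate 1, and 4847 barcodes and 59074480 UMIs in replicate 2. After cells with few genes, high mitochondrial counts or a likely doublet score were left out, 3636 and 4371 cells remained. Germ cells were taken as cells with a UMI of at least 3 of the 7 genes Ddx4, Dazl, Figla, Ooep, Sohlh1, Padi6 and Sycp3, these genes making up at least 0.1% of the cell's UMIs. None of the zona genes enters that rule. It gave 238 germ cells in replicate 1, 6.55% of its kept cells (exact binomial interval 5.76% to 7.40%), and 726 in replicate 2, 16.6% (15.5% to 17.7%). Intervals here cover counting error only. The libraries stand apart in these cells. The median germ cell had 76561 UMIs in replicate 1 and 43870 in replicate 2, and 22 and 265 germ cells respectively had under 10000. In a clustering that did not use the zona genes, germ cells of many UMIs fell into separate clusters by library. Cluster 7 held 198 cells of replicate 1 and 5 of replicate 2, and cluster 20 held 8 and 426. The remaining germ-like cluster, of few UMIs, held 30 and 244. Each value is therefore given by library, and whether pups, dissociation or capture set the libraries apart cannot be told apart with 1 library per mother. The libraries shared 21 barcode sequences.

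Zp1, Zp2 and Zp3 transcripts were found almost wholly in germ cells. Over all barcodes, Zp1 had 5555 UMIs in replicate 1 and 7081 in replicate 2, Zp2 had 13837 and 25024, and Zp3 had 22131 and 21562. Barcodes that passed the germ rule, including those the cell filters removed, held 98.7% to 99.3% of them in every gene and library. Among kept germ cells, the level of Zp1 was 322 counts per 1000000 UMIs (CPM) in replicate 1 and 250.4 in replicate 2, a mean of 286 ± 50.7 (SD, n = 2). Zp2 stood at 799 and 872 CPM, a mean of 836 ± 51.6, and Zp3 at 1275 and 756, a mean of 1015 ± 367. Zp1 was the lowest of the 3 in both libraries. Zp2 and Zp3 traded places between the libraries, and their means differed by less than the SD of Zp3. With 2 libraries an exact permutation test between genes cannot reach 0.05, so none was run.

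**Figure D1:**
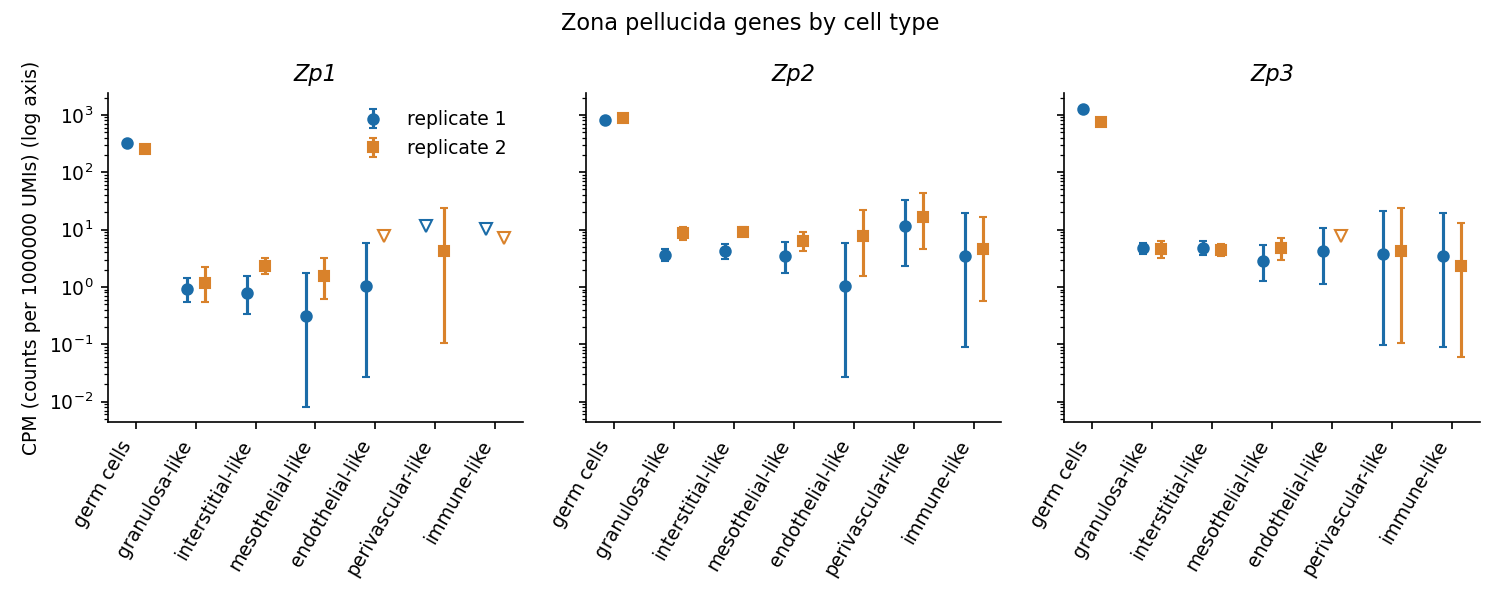
CPM of each zona gene by cell type, on a log axis, in replicate 1 (circles) and replicate 2 (squares), with exact Poisson intervals. Open triangles mark types with no UMI, drawn at the level that 3 UMIs would give. Germ cells lie between 250.4 and 1275, and every somatic type lies under 20.

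In all other kept cells the levels were 0.897 and 1.89 CPM for Zp1, 4.16 and 9.61 for Zp2, and 4.69 and 5.10 for Zp3, replicate 1 before replicate 2. UMIs summed per library over germ cells and over other cells were compared with edgeR's quasi-likelihood test, and a gene was called where its Benjamini-Hochberg adjusted p was under 0.05 and its change over 2-fold. Zp1 was higher in germ cells by 7.77 on the log2 scale (SE 0.46, adjusted p = 0.00067), or 218-fold. Zp2 was higher by 7.0 (SE 0.53, adjusted p = 0.00092), or 128-fold, and Zp3 by 7.78 (SE 0.36, adjusted p = 0.00051), or 219-fold. Each was higher in both libraries, and no level of a zona gene in germ cells overlapped one in other cells. Of the 16143 genes tested, 29.7% were called higher in germ cells and 31.1% lower, so a call as such is common in this comparison.

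The genes around the zona genes in their biology were described by lists. Of 10 egg surface and zona modifying genes, 7 rose in germ cells and 1 fell, with a median log2 difference of 5.23 against 0.01 over all genes tested. Izumo1r, the egg receptor for sperm IZUMO1, rose by 7.45, Oosp2, an oocyte secreted protein, by 7.17, and Astl, the protease ovastacin that cleaves ZP2 after fertilization, by 7.07. Cd81, a tetraspanin of many cell types, was the gene that fell. Oosp1, Oosp2 and Oosp3 passed the filter through germ cells only. Of the 8 tested genes among 11 others with a zona domain, 5 passed the filter on low counts through germ cells only, so that their rise was largely set by the filter, and 3 fell. Of the 5, Umod differed by 6.88 and Umodl1 by 6.69, while Gp2 had 9 and 11 UMIs in germ cells and 0 in other cells of either library, at least 6.29-fold and 3.83-fold higher against a floor of 3 UMIs per library. Oit3, Eng and Tgfbr3 were the 3 that fell, of which Eng and Tgfbr3 encode co-receptors for the TGF-beta family.

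Of 10 oocyte transcription factors and E-protein partners, Figla and Sohlh1 helped to choose the germ cells, so their rise was fixed by that choice. Of the other 8, 5 rose and 1 fell, with a median of 4.95. Tbpl2, a TATA-binding protein relative used by oocytes, rose by 7.62, and the homeodomain factors Lhx8 and Nobox rose by 7.04 and 7.04. The E-protein Tcf4 fell, and its relatives Tcf3 and Tcf12 did not pass the test. All 3 oocyte growth factor and Kit genes rose, Gdf9 by 7.28, Bmp15 by 5.68 and the receptor gene Kit by 5.46. All 8 tested maternal-effect genes rose, with a median of 7.0, led by Npm2 (7.38), Nlrp5 (7.21) and Nlrp14 (7.13). Of 14 meiotic prophase genes, 12 rose and 1 fell, with a median of 6.62. Rec8, which encodes a cohesin subunit, was the gene that fell, and Msh5 was not called. Tbpl2, Bmp15 and 4 of the meiotic genes passed the filter through germ cells only, so that their rise was largely set by it. Of 27 genes of the secretory pathway and N-glycosylation, which zona precursors pass through, 1 rose and 5 fell, with a median of -0.22. The 5 that fell include the translocon-associated gene Ssr3 (-2.55), the chaperone gene Hspa5 (-2.21) and the disulphide isomerase gene Pdia6 (-1.42). The rest were not called. Over all genes tested 29.7% were called higher and 31.1% lower, so calls in either direction were rarer in this list.

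Among single germ cells, Zp1 was detected least widely, and the order of Zp2 and Zp3 differed with library and depth. At least 1 Zp2 UMI was found in 95.8% of germ cells of replicate 1 and 89.8% of replicate 2, Zp3 in 94.5% and 78.2%, and Zp1 in 85.3% and 61.2%. Cells differ in depth, so each germ cell of at least 10000 UMIs was also thinned at random to 10000, which kept 216 and 461 cells. Zp2 was then detected in 95.8% (interval 92.2% to 98.1%) and 96.3% (94.2% to 97.8%), a mean of 96.1% ± 0.339 (SD, n = 2). Zp3 was detected in 94.0% (89.9% to 96.8%) and 83.3% (79.6% to 86.6%), a mean of 88.6% ± 7.55, and Zp1 in 73.1% (66.7% to 78.9%) and 64.2% (59.6% to 68.6%), a mean of 68.7% ± 6.32. Zp1 was the least detected in both libraries. Zp2 and Zp3 overlapped in their counting intervals in replicate 1 and not in replicate 2.

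As a background, cells were thinned to 2000 UMIs so that somatic cells could be set beside germ cells. A Zp2 UMI was then found in 64.2% of germ cells of replicate 1 and 71.4% of replicate 2, and in 0.730% and 2.20% of granulosa-like cells. For Zp3 the shares were 70.7% and 54.0% in germ cells and 1.16% and 1.18% in granulosa-like cells. For Zp1 they were 35.4% and 29.2% in germ cells and 0.304% and 0.338% in granulosa-like cells. The germ cell share lay far above the somatic share for each gene in each library. At this depth Zp3 was detected more widely than Zp2 in replicate 1, with overlapping counting intervals (64.4% to 76.5% and 57.6% to 70.4%), and less widely in replicate 2.

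The rank of Zp2 and Zp3 within a cell differed between the libraries. Among germ cells of at least 10000 UMIs, unthinned, Zp3 had more UMIs than Zp2 in 162 of 216 cells of replicate 1, or 75% (68.7% to 80.6%). In replicate 2 it did so in 134 of 461 cells, or 29.1% (24.96% to 33.4%). Zp2 exceeded Zp1 in 95.4% and 98.0% of cells and Zp3 exceeded Zp1 in 94.4% and 85.9%. The place of Zp1 below the other two thus held in both libraries, whereas the order of Zp2 and Zp3 did not.

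The difference between libraries was also seen within ranges of total UMIs. Between 40000 and 80000 UMIs, Zp3 had 1.35 UMIs per Zp2 UMI in replicate 1 (1.29 to 1.41) and 0.805 in replicate 2 (0.786 to 0.825). At 80000 UMIs or more the ratios were 1.70 (1.66 to 1.74) and 1.07 (1.04 to 1.11), and between 10000 and 40000 they were 1.01 (0.869 to 1.18) and 0.642 (0.587 to 0.701). Within each of these ranges the ratio was higher in replicate 1, and in each library it was highest in the cells of most UMIs. The cells were not matched within a range. The median total was 71364 UMIs in replicate 1 and 62147.5 in replicate 2 between 40000 and 80000, and 95398 and 87953 at 80000 or more. The difference between libraries was not tested, since there is 1 library on each side.

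Most germ cells that had one zona gene had the others. After thinning to 10000 UMIs, all 3 genes were detected together in 154 of 216 cells of replicate 1, or 71.3% (64.8% to 77.2%), and in 278 of 461 of replicate 2, or 60.3% (55.7% to 64.8%). Zp2 with Zp3 but no Zp1 was the next most common state, in 20.8% and 21.7%. Zp2 alone was found in 7 cells (3.24%) of replicate 1 and 51 cells (11.1%) of replicate 2. Zp3 alone was found in 1 and 4 cells, and Zp1 alone in 0 and 1. The 0 of 216 cells allows a share of up to 1.39%, by 3 counts, and its exact two-sided binomial interval reaches 1.69%. No zona gene was detected in 5 and 10 cells.

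**Figure D2:**
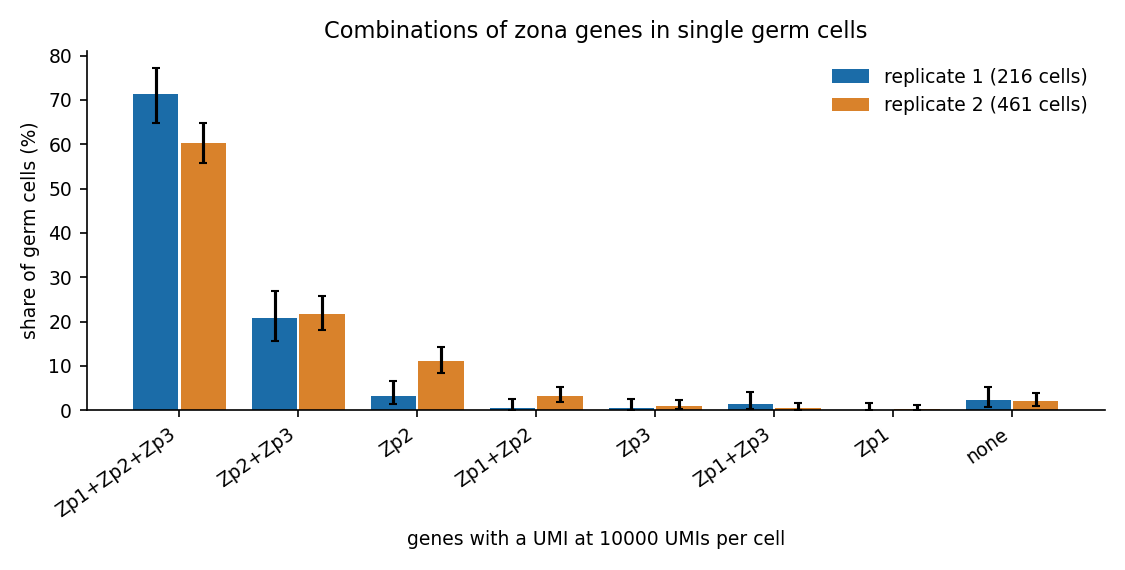
Share of germ cells, each thinned to 10000 UMIs, with a UMI of the named combination of zona genes and of no other. Bars are replicate 1 (216 cells) and replicate 2 (461 cells), with exact binomial intervals. All 3 genes together make the tallest bars, at 71.3% and 60.3%, and Zp2 alone reaches 11.1% in replicate 2.

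The detection of one gene went with that of another. In replicate 1, Zp1 was detected in 77.3% of cells with Zp3 and in 1 of 13 cells without it (7.69%, interval 0.195% to 36.0%). In replicate 2 it was detected in 72.9% of cells with Zp3 and in 20.8% of cells without (12.4% to 31.5%). Conversely, Zp3 was detected in 99.4% and 94.6% of cells with Zp1, and in 79.3% and 63.0% of cells without it. Zp2 was detected in 98.1% and 99.0% of cells with Zp1 and in 89.7% and 91.5% of cells without it. Cells with Zp1 therefore nearly all had Zp2 and Zp3, and cells without Zp1 mostly had them too. All cells were sampled at a single age, so this describes which combinations occur and not the time at which each gene came on.

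The counts rose together as well. At 10000 UMIs per cell, germ cells with no Zp3 UMI had a mean of 0.0769 Zp1 UMIs in replicate 1 (13 cells) and 0.312 in replicate 2 (77 cells), and a mean of 1.31 and 2.91 Zp2 UMIs. Cells with 6 to 10 Zp3 UMIs had 2.13 and 2.60 Zp1 UMIs and 6.27 and 9.31 Zp2 UMIs. Cells with 21 or more Zp3 UMIs had 6.76 and 6.52 Zp1 UMIs and 15.4 and 20.8 Zp2 UMIs (29 and 23 cells). The means climbed from each group to the next in both libraries. At a given Zp3 count the Zp2 mean was higher in replicate 2 in each of the groups. The median total of the cells, before thinning, climbed in parallel, from 47602 to 98762 UMIs in replicate 1 and from 46026 to 81469 in replicate 2.

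**Figure D3:**
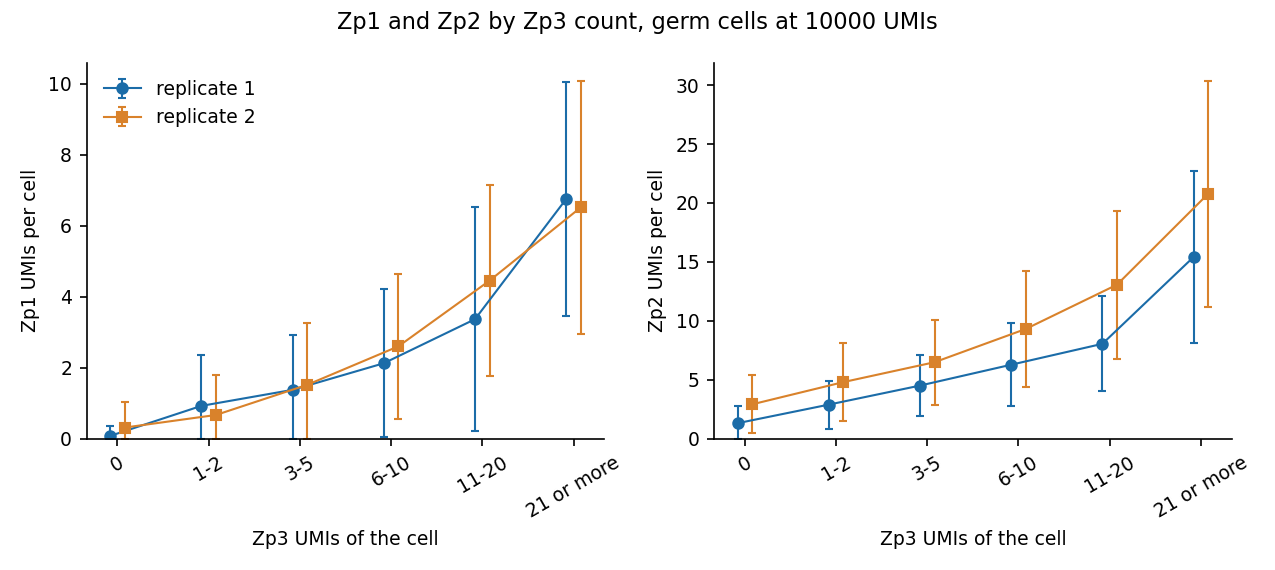
Mean Zp1 (left) and Zp2 (right) UMIs per germ cell, by the number of Zp3 UMIs in the cell, with every cell thinned to 10000 UMIs. Bars are the SD over cells, cut at 0, and lines join the groups of a library. Zp1 climbs to 6.76 and 6.52, and Zp2 to 15.4 and 20.8.

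To set this against all genes, the thinned germ cells of each library were ranked by Zp3 count and split into 3 groups of equal size. The highest (Zp3-high) and the lowest (Zp3-low) group were summed and compared with edgeR, with Zp3 left out. The Zp3-high group held cells with 13 to 50 Zp3 UMIs in replicate 1 and 7 to 42 in replicate 2, and the Zp3-low group cells with 0 to 6 and 0 to 2. Zp1 stood at 106 and 51.6 CPM in the Zp3-low groups and 481 and 423 in the Zp3-high groups. Zp2 stood at 339 and 388 in the Zp3-low groups and 1079 and 1320 in the Zp3-high groups. For both genes the Zp3-high groups lay above the Zp3-low groups without overlap. The mitochondrial share moved with the groups, at 3.12% and 3.48% of UMIs in the Zp3-low groups and 2.49% and 2.38% in the Zp3-high groups. The median total UMIs before thinning also moved, from 60963 and 49521 in the Zp3-low groups to 95772 and 72231 in the Zp3-high groups. The part of either in the differences was not tested. Zp1 was higher by 2.64 on the log2 scale (SE 0.24, adjusted p = 0.00011) and Zp2 by 1.76 (SE 0.14, adjusted p = 3.2e-05). Of 8671 genes tested, 290 or 3.34% were called higher at an adjusted p under 0.05 and 114 or 1.31% lower. With the library as a block the counts were 874, or 10.1%, and 576, or 6.64%.

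Maternal-effect genes are those whose products the oocyte stores for the embryo. Of 8 tested, 7 rose in the Zp3-high groups and 0 fell, with a median log2 difference of 1.45 beside 0.01 over all genes. Zar1, an RNA-binding protein of oocytes, went from 12.5 and 11.2 CPM in the Zp3-low groups to 345 and 351 in the Zp3-high groups, a rise of 4.89 (SE 0.20, adjusted p = 2.8e-07). Npm2, a histone chaperone of the egg, rose by 3.12, and Khdc3, a member of the subcortical maternal complex, by 2.72. Nlrp4f, at -0.05, was the gene that did not pass. Among egg surface and zona modifying genes, 4 of 8 tested rose and 0 fell, with a median of 0.64. Oosp2 rose by 3.46 and Astl by 2.06. With the library as a block Cd9 was also called higher. Oosp1 had 7 and 14 UMIs in the Zp3-high groups and 0 in both Zp3-low groups, at least 2.33-fold and 4.67-fold higher against a floor of 3 UMIs per library, and the list's median is the same with Oosp1 at that bound. Umodl1, the only other zona domain gene of 11 that could be tested, had 9 and 27 UMIs in the Zp3-high groups and 0 and 5 in the Zp3-low groups and was called higher (adjusted p = 0.039). Oosp1, Oosp2 and Umodl1 passed the filter on low counts through the Zp3-high groups only, so that their calls were largely set by it.

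The factors known to act on oocyte genes were mostly not called. Of 10 oocyte transcription factors and E-protein partners, Nobox alone rose, by 0.59 (SE 0.11, adjusted p = 0.013), from 454 and 417 to 634 and 670 CPM. Figla, at -0.14 (SE 0.10), and Lhx8, at 0.03 (SE 0.14), did not pass. Gdf9 rose by 1.41 (SE 0.12, adjusted p = 7.7e-05), while Kit, at 0.47, and Bmp15, at 0.88, did not pass. With the library as a block Kit was called higher, by 0.43 (adjusted p = 0.0064). None of the 11 meiotic prophase genes tested was called, and their median was -0.08. With the library as a block, Smc1b and Mael were called higher and Sycp1, Hormad1 and Syce1 lower. Of 27 secretory pathway genes, the chaperone gene Calr (0.61) and the translocon-associated gene Ssr4 (0.52) rose and Ostc, of the oligosaccharyltransferase, fell by 0.70 on the log2 scale. With the block 4 rose, P4hb and Copa being added, and 5 fell, Pdia6, Ssr1, Tmed2 and Spcs2 being added. Of the 7 genes used to choose the germ cells, Padi6 and Ooep rose, by 1.54 and 1.56, and with the block Dazl fell by 0.33 on the log2 scale.

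Among genes with a mean of at least 50 CPM over groups, those that rose most with Zp3 were Elobl, Zar1, Miox, Tubg2 and Npm2. Elobl had 112 and 87 UMIs in the Zp3-high groups against 3 and 0 in the Zp3-low groups, 37.3-fold in replicate 1 (12.5 to 184) and at least 29.0-fold in replicate 2. Miox, a myo-inositol oxygenase, rose by 4.23 and Tubg2, a gamma-tubulin, by 3.31. Elobl and Miox, the latter at 8.34 and 5.27 CPM in the Zp3-low groups, passed the filter on low counts through the Zp3-high groups only. The direction of their calls was largely set by it. The largest falls were those of Hbb-bs, Gm364, BC049730, Gm15389 and Gstk1. Hbb-bs is a haemoglobin gene, and its fall of 6.06 on the log2 scale rests on replicate 1, where it went from 891 to 2.81 CPM, against 16.5 to 8.27 in replicate 2. Hbb-bs passed the same filter through the Zp3-low groups only, so its call has the same limit. The 7 erythroid markers summed to 1871 CPM in the Zp3-low group of replicate 1 and 26.8 in that of replicate 2, with 5.56 and 17.0 in the Zp3-high groups. With cells of at least 20000 UMIs, thinned to 20000, the Zp3-low group of replicate 1 held 10.1. Markers of granulosa, interstitial and mesothelial cells summed to 76.4 to 154 CPM in the Zp3-low groups and 19.4 to 178 in the Zp3-high groups, and their part in these differences was not tested.

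Zona gene levels also differed with the total UMIs of the germ cell. At 80000 UMIs or more, Zp1 stood at 439 CPM in replicate 1 (101 cells) and 500.3 in replicate 2 (55 cells), and between 40000 and 80000 at 156 and 204 (91 and 326 cells). Zp3 stood at 1683 and 1564 in the range of most UMIs and at 701 and 599.5 in the range below it. Zp2 stood at 991 and 1461, and at 521 and 745. All 3 genes were thus highest in CPM in the cells of most RNA among cells of 10000 or more UMIs, in both libraries. In cells of under 5000 UMIs, Zp2 and Zp3 stood above their levels between 20000 and 40000 in both libraries. In replicate 2 (218 cells) Zp2 was at 1074 CPM against 618, and Zp3 at 586 against 406. In replicate 1 the 19 cells of under 5000 UMIs held 32 Zp2 and 49 Zp3 UMIs. Zp2 was there at 728 (498 to 1028) against 611 (545 to 683), which overlap, and Zp3 at 1115 (825 to 1475) against 615 (549 to 687), which do not. The germ rule asks for UMIs of at least 3 genes of a list that includes Padi6 and Ooep, whatever the depth of the cell. Across germ cells thinned to 10000 UMIs, Padi6 correlated with Zp2 by 0.68 and with Zp3 by 0.67 in the lower library. Ooep correlated with Zp2 by 0.61. The part of this choice of cells in the levels under 5000 UMIs was not tested.

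**Figure D4:**
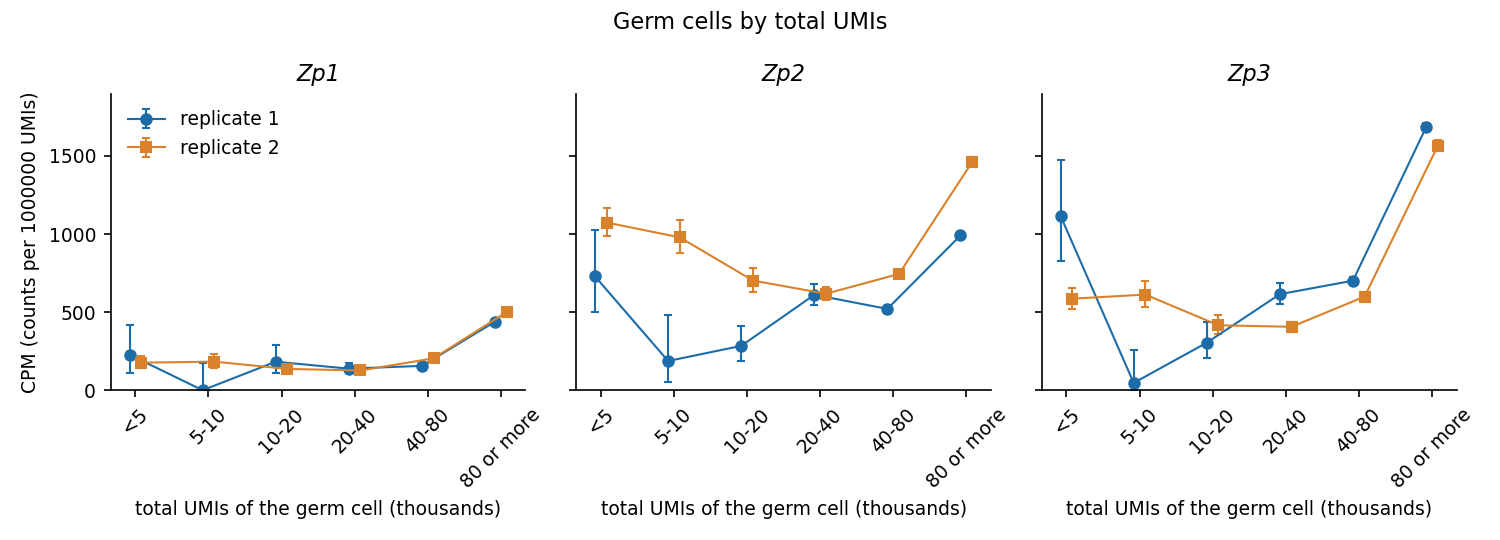
Zona gene CPM in germ cells grouped by total UMIs, in replicate 1 (circles) and replicate 2 (squares), with exact Poisson intervals. The highest levels among cells of 10000 or more UMIs are at 80000 or more, with Zp1 at 439 and 500.3 and Zp3 at 1683 and 1564. The points of replicate 1 between 5000 and 10000 UMIs rest on 3 cells.

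At equal depth the shares were likewise highest in the cells of most UMIs. Thinned to 10000 UMIs, Zp1 was detected in 90.1% and 92.7% of cells that had 80000 UMIs or more, in 60.4% and 64.4% of those with 40000 to 80000, and in 47.1% and 38% of those with 20000 to 40000. The fall was not steady, since Zp1 was detected in 57.1% (interval 18.4% to 90.1%) and 53.3% (34.3% to 71.7%) of the 7 and 30 cells of 10000 to 20000. Zp3 was detected in 100% and 100% of cells of 80000 or more, and in 88.2% and 66.0% of cells of 20000 to 40000. Zp2 was detected in 88.2% and 88.0% of cells of 20000 to 40000. Between 80000 or more and 20000 to 40000, the share of Zp1 thus changed most of the 3, and Zp2 was found in most cells throughout.

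Germ cells were also ranked by total UMIs and split into 3 groups of equal size within each library, and the RNA-rich and the RNA-poor group were compared in the same way, unthinned. Zp1 went from 111 and 180 CPM in the RNA-poor groups to 469 and 322 in the RNA-rich groups, Zp2 from 428 and 999 to 1063 and 1014, and Zp3 from 478 and 586 to 1805 and 950. The levels of Zp1 and Zp3 in the RNA-rich groups lay above both RNA-poor groups, and those of Zp2 did so by little in replicate 2. Under the stricter germ rule, at 0.2% of a cell's UMIs, the direction of Zp2 turned in replicate 2, from 1171 CPM in the RNA-poor to 1023 in the RNA-rich group. Without a term for the library no gene was called among 11867 (0%), and Zp1 differed by 1.58 (SE 0.30, adjusted p = 0.49), Zp3 by 1.48 (SE 0.33, adjusted p = 0.49) and Zp2 by 0.67 (SE 0.38, adjusted p = 0.55). In that edgeR fit 1188 genes had an unadjusted p under 0.05, and DESeq2 called 82. Both groups of a library come from the same droplet run, and with the library as a block 320 genes, or 2.70%, were called higher and 521, or 4.39%, lower. In that fit Zp1 rose by 1.59 (adjusted p = 6.2e-08), Zp3 by 1.42 (adjusted p = 2.1e-06) and Zp2 by 0.77 (adjusted p = 0.031). By library, replicate 1 before replicate 2, the log2 differences were 2.15 and 0.98 for Zp1, 1.98 and 0.84 for Zp3, and 1.38 and 0.16 for Zp2, so that replicate 1 carried most of each. The blocked fit gave each of the 3 genes an SE of 0.25, drawn from a spread pooled over genes. Its adjusted p-values thus do not measure this gap between the libraries.

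**Figure D5:**
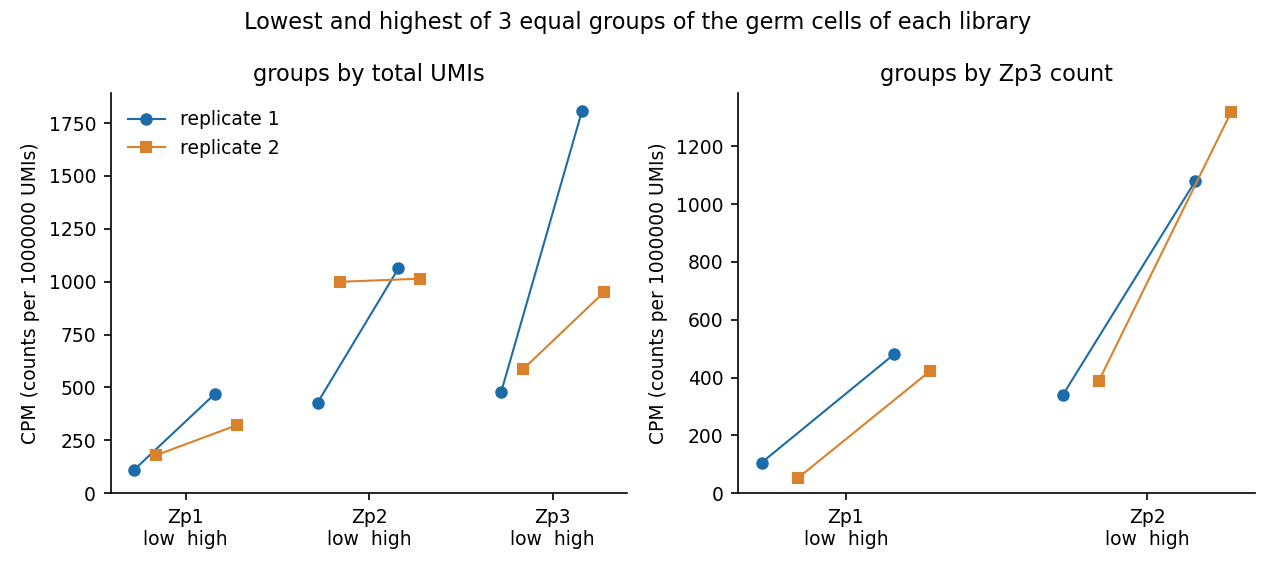
CPM of the zona genes in the lowest and the highest of 3 equal groups of the germ cells of each library, ranked by total UMIs (left) and by Zp3 count at 10000 UMIs per cell (right). Each line joins the 2 groups of a library. Zp2 goes from 999 to 1014 in replicate 2 on the left, and every other line climbs more steeply.

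The RNA-poor groups were not alike in the 2 libraries. That of replicate 1 ran from 612 to 66669 total UMIs and that of replicate 2 from 609 to 7304. In the RNA-poor group of replicate 2, interstitial markers summed to 1331 CPM, mesothelial markers to 567 and granulosa markers to 292, against 80.4, 64.7 and 144 in its RNA-rich group. In replicate 1 these sums were 68.6, 63.4 and 74.7 in the RNA-poor group and 23.1, 34.6 and 14.98 in the RNA-rich group, and erythroid markers were 698 in the RNA-poor group against 5.96. Among germ cells of 10000 UMIs or more, a restriction chosen after these values were seen, Zp1 differed by 1.96 (adjusted p = 0.0496), with 12 genes called, while Zp3, at 1.77, and Zp2, at 1.15, did not pass. In those cells interstitial markers of replicate 2 were 129 in the RNA-poor group and 61.3 in the RNA-rich group. Under this restriction the log2 differences, replicate 1 before replicate 2, were 2.07 and 1.83 for Zp1, 1.77 and 1.77 for Zp3, and 1.28 and 1.03 for Zp2. Each was smaller than over all germ cells in replicate 1 and larger in replicate 2. The part of the cells of few UMIs in the differences was not tested.

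In the blocked fit by RNA content, other oocyte genes were called beside the zona genes. The comparisons by Zp3 and by RNA content draw on the same germ cells, and the Zp3-high groups were also higher in total UMIs. Genes called in both are therefore not separate evidence. Over all genes 2.7% were called higher and 4.39% lower in that fit, and none in the main fit without the block. Of 8 tested maternal-effect genes 4 rose and 0 fell, with a median log2 difference of 0.74 beside 0.02 over all genes, and Zar1 (2.12), Npm2 (1.68) and Zbed3 (0.77) led them. Of 9 egg surface and zona modifying genes, Oosp2 (1.81), Astl (1.13) and Izumo1r (0.84) rose and Cd81 fell. Gdf9 rose by 1.10 (adjusted p = 0.00039). By library, replicate 1 before replicate 2, Zar1 differed by 3.48 and 0.77, Npm2 by 2.30 and 1.02, and Zbed3 by 0.64 and 0.90. Oosp2 differed by 2.40 and 0.59, and Gdf9 by 1.46 and 0.72. Of these, Zbed3 alone differed more in replicate 2, and the adjusted p-values do not measure such gaps. Of the 10 transcription factors and partners none was called, with Figla at 0.47 and Nobox at 0.57. None of 13 meiotic genes was called, and 2 of 27 secretory pathway genes fell, Ssr3 by 1.31 on the log2 scale and Hspa5 by 0.85. The 3 other zona domain genes tested were not called. The largest rises were those of Elobl (2.43), Zar1, Tubg2 (1.69), Npm2 and Map3k6 (1.67). The largest falls were the haemoglobin genes Hba-a1 (-5.39) and Hbb-bs (-4.63), then Meg3 (-3.59), Col1a1 (-3.58) and Igfbp7 (-3.55), of which Col1a1, a collagen of stroma, is among the interstitial markers given above.

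The spread of the zona genes over single cells was wide. In germ cells of at least 10000 UMIs, the median cell held 5.89 Zp2 UMIs per 10000 in replicate 1 and 6.75 in replicate 2, with 25th and 75th percentiles of 3.72 and 9.11, and of 3.87 and 10.3. The median for Zp3 was 9.19 and 5.17, with percentiles of 4.49 and 14.3, and of 1.41 and 9.49. For Zp1 it was 2.05 and 1.33, with percentiles of 0.666 and 4.12, and of 0.1996 and 3.50. The richest cells held 619 Zp3 UMIs in replicate 1 and 453 in replicate 2, 375 and 267 of Zp2, and 134 and 121 of Zp1. Over all kept germ cells (238 and 726), and in UMIs not scaled to the total of the cell, concentration was also described. The 10% of germ cells with most of a gene's UMIs held 33.2% to 37.7% of it in replicate 1 and 41.5% to 53.3% in replicate 2. These sets include the 22 and 265 cells of under 10000 UMIs, so the share also follows the depth of the cells. Zp2 was the most evenly spread of the 3 in each library by this share.

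The genes whose counts were most like those of a zona gene included the other zona genes. Likeness was the Pearson correlation of log2(1 + UMIs) across germ cells thinned to 10000 UMIs (216 and 461 cells), taking the lower of the 2 libraries, over 7362 genes detected in at least 10% of the cells. The cells of a library share its run, so the values are a description. The gene most like Zp2 was Zp3 (0.68), followed by Padi6 (0.68), Dppa5a (0.64), Ooep (0.61) and Oas1c (0.56), with Zp1 in place 6 (0.56). Zp3 was nearest to Zp2 (0.68), Padi6 (0.67), Npm2 (0.66), Dppa5a (0.65) and Zar1 (0.62), with Zp1 in place 7 (0.61). Zp1 was nearest to Zp3 (0.61), Npm2 (0.60), Zp2 (0.56), Padi6 (0.56) and Dppa5a (0.55). Padi6 and Ooep, genes of the oocyte's cytoplasmic lattices and maternal complex, were also used to choose the cells. Dppa5a encodes an RNA-binding protein of germ cells and early embryos.

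Outside germ cells the zona genes were at trace level. In the 3395 and 3633 kept cells that neither passed the germ rule nor lay in a germ-like cluster, there were 28 and 55 Zp1 UMIs, 129 and 270 Zp2 UMIs, and 156 and 143 Zp3 UMIs. Their CPM was 0.252% and 0.757% of the germ cell level for Zp1, 0.467% and 1.07% for Zp2, and 0.354% and 0.652% for Zp3. For Gdf9 and the 8 maternal-effect genes other than Nlrp2, which had 3 and 14 UMIs in germ cells, the median in the same cells was 0.549% and 1.09%. Nlrp5 stood at 0.417% and 0.922% and Npm2 at 0.485% and 0.809%. Tle6 (4.60% and 3.69%) and Zbed3 (12.8% and 15.1%) stood higher. Zp2 lay within the range of these 9 genes in both libraries, and Zp1 and Zp3 lay below the lowest of them. All 6 zona ratios were below the median of their library.

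The trace was spread over cell types. Zp2 stood at 3.57 and 8.60 CPM in granulosa-like cells, 4.20 and 9.25 in interstitial-like cells and 3.44 and 6.25 in mesothelial-like cells. Zp3 stood at 4.70 and 4.63, 4.78 and 4.43, and 2.82 and 4.69 in the same types. For Zp3 the granulosa-like and interstitial-like values of both libraries lay within each other's counting intervals. Endothelial-like, perivascular-like and immune-like cells, 33 to 65 cells per library, held 0 to 4 UMIs of any zona gene. A cell with a zona UMI mostly had a single one: 100% and 96.2% of cells with Zp1, 98.4% and 92.4% with Zp2, and 95.3% and 94.8% with Zp3 had 1 UMI, and no cell had more than 3. Of 295 and 403 such cells, 9 and 33 had at least 2 of the 3 genes, and among these 0 and 1 had all of them. Their median total was 9617 and 7142 UMIs, against 8283 and 5706 in the cells without a zona UMI.

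The mix of zona transcripts in somatic cells was also compared with that in germ cells. Zp2 made up 45.3% of Zp2 and Zp3 UMIs in somatic cells of replicate 1 (39.4% to 51.2%) and 65.4% in those of replicate 2 (60.6% to 70.0%). In germ cells it made up 38.5% (38.03% to 39.1%) and 53.6% (53.1% to 54.0%). The somatic share was above the germ cell share in both libraries, and in both the counting intervals did not overlap. In replicate 1 they came close, with limits of 39.4% and 39.1%. The intervals take UMIs as independent and leave out the spread between cells, and the difference was not tested. In germ cells of under 10000 UMIs the share was 41.9% (31.3% to 53.0%) and 63.4% (60.8% to 65.9%), and it overlapped the somatic share of its library. Whether the somatic UMIs are free RNA from broken cells or transcripts of the cells themselves was not tested.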

How the data were processed

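Per the labels and the submitters' processing notes, the authors counted UMIs per gene and barcode with Cell Ranger 3.0.2 against GRCm38 and deposited the raw whole-number counts of the barcodes that passed its cell calling. The labels and the study's methods name different versions of the Chromium 3′ kit. The filters of the study are in a note not used here. Cells under 500 genes or over 10% mitochondrial UMIs were left out, and 102 and 93 likely doublets (2.73% and 2.08%) were removed with Scrublet at the automatic score threshold of replicate 1 (0.224), because that of replicate 2 (0.519) lay far higher. Leiden clustering (scanpy 1.11.5, resolution 1, 30 components, 15 neighbours, 1970 variable genes without the zona and listed genes) gave 22 clusters, called X-like from marker lists. Depth was 54471790 and 59074480 UMIs.

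UMIs summed per library and cell group were tested in R 4.3.3 by the quasi-likelihood method of edgeR 4.0.16 (TMM scaling after filterByExpr, Benjamini-Hochberg adjustment over all genes), and with DESeq2 1.42.0 as an alternative. The test was checked on simulated data. CPM in the text is computed from the UMIs of the summed cells, with TMM-scaled totals for named genes other than the zona genes. The cell groups of a library share a droplet run and pups, which pairs them. The deviations of a library from the group means correlated between its 2 groups by 0.069 for germ against other cells, 0.46 for the groups by total UMIs and 0.21 for the groups by Zp3, so each comparison was also fitted with a block for the library. Shares carry exact binomial intervals and levels exact Poisson intervals at 95%. The p-values rest on 2 libraries, and their error draws on a spread pooled over the genes tested. Those of the fits with a block do not measure how far the libraries differ for a single gene. The groups by Zp3 are ranges of a single count, and 8 to 38 cells were tied at the limit of a group. A gene's first identifier was used where a symbol had several. In each list, up to 3 genes of the largest called change in the same direction in both libraries were named. In the comparisons within germ cells, the 5 largest in each direction with a mean of at least 50 CPM over groups were also named. The zona genes and the lists were chosen with earlier results of these data known. Alternatives changed the block, tool, scaling, filter, germ rule, doublets, depth, limits of the groups and libraries.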

Additional observations from a re-analysis of the deposited data

Results flagged for a closer look

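Zona transcripts were also found in barcodes that none of the main comparisons used, because the cell filters had removed them. Some alternatives took them in, by keeping likely doublets or all barcodes. These barcodes held 218 Zp1 UMIs in replicate 1 and 62 in replicate 2, 521 and 477 Zp2 UMIs, and 967 and 383 Zp3 UMIs, all above the 3 counts that a count of 0 allows. They are 3.77% to 4.37% of the UMIs of each gene in replicate 1 and 0.876% to 1.91% in replicate 2. Of the 458 and 476 removed barcodes, 34 and 76 passed the germ rule. Of those, 21 and 24 had over 10% mitochondrial UMIs, 12 and 23 were likely doublets, and 3 and 36 had under 500 genes.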

How the results depend on the processing

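Of 130 recomputed values, 101 were counted as unchanged, and none of the fitted differences reversed. Unchanged meant the same direction and call for a difference, and the same direction alone where a library was left out. For a number of genes called it meant staying within a set fold, and for a share within the SD of the libraries. A share with 1 library left out always lies within that SD, so its outcome was fixed in advance. Within replicate 2 alone, the difference of Zp2 by RNA content turned to -0.06 under the stricter germ rule. For germ against other cells, thinning cells to 2000 UMIs lowered the genes called from 9818 to 6228. For RNA-rich against RNA-poor germ cells, where 0 genes were called, the count was 841 with the replicate block, 704 without the filter on low counts, 82 by DESeq2, 62 at 5000 UMIs per cell and 12 in germ cells of 10000 UMIs or more, the last chosen after seeing the data. Zp1 was called under these at 1.59, 1.65, 1.55, 1.67 and 1.96, Zp2 with the block and without the filter at 0.77 and 0.75, and Zp3 with the block, without the filter, by DESeq2 and at 5000 UMIs at 1.42, 1.55, 1.46 and 1.43. Over all alternatives the adjusted p of Zp1 there ran from 6.4e-10 to 0.49. For Zp3-high against Zp3-low germ cells, 404 genes became 1450 with the replicate block, 821 without the filter, 171 by DESeq2, 628 at 20000 UMIs and 100 above against at or below the median. The block changed no other call of a zona gene. The share with Zp1, 68.7%, was 53.6% at 5000 UMIs and 79.5% at 20000. That with Zp2, 96.1%, was 91.0%, 99.5%, 92.8% unthinned and 97.0% under the stricter germ rule, and that with Zp3, 88.6%, was 80.9% at 5000. Scaling by library size only moved the median of all genes by RNA content from 0.01 to -0.10. With 1 library left out no residual degrees of freedom remain, so no test was made, and the log2 differences of Zp1, Zp2 and Zp3 ran from 7.06 to 8.47, 6.56 to 7.66 and 7.26 to 8.16 for germ cells, from 0.98 to 2.15, 0.16 to 1.38 and 0.84 to 1.98 by RNA content, and those of Zp1 and Zp2 from 2.18 to 3.06 and 1.68 to 1.83 by Zp3. By RNA content, replicate 1 alone gave the higher value of each gene. Causes were not tested. Among the shares, that with Zp1 moved most between 5000 and 20000 UMIs, and the cells that reach each depth differ.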

Other observations

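Cells in clusters that were left without a name, and that failed the germ rule, held 22 Zp2 and 15 Zp3 UMIs and 1 Zp1 UMI in replicate 2, and none in replicate 1. Their Zp2 level was 18.1% of the germ cell level of replicate 2 and their Zp3 level 14.2%, and Gdf9 with 8 maternal-effect genes had a median of 17.2%. The larger of these clusters is led by haemoglobin and immune genes and had a median of 683 UMIs per cell in replicate 2.

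Cells that passed the germ rule but lay outside the germ-like clusters, 5 in replicate 1 and 63 in replicate 2, held Zp1 at 39.4 and 17.4 CPM, Zp2 at 276 and 188, and Zp3 at 210.3 and 69.5. Each of these levels was below that of all germ cells of the library and above that of the other cells.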
